A study of Homo sapiens
Rattus norvegicus and Homo sapiens with 10 samples.

Results

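Interferon-stimulated genes are genes of antiviral defence and pathogen sensing that a cell turns on when interferon binds its receptors. A list of 45 symbols was looked up by gene name in the deposited table of 62754 human genes, and 44 rows were found, because DDX58 is the older symbol of RIGI. IRF7, a transcription factor of the response, was listed at 0 in all 10 libraries and was not tested, which left 43 genes for every comparison. The libraries came from U251N, an established human glioblastoma line, implanted into the brains of adult female immune-compromised RNU/RNU rats, an athymic strain that lacks T cells but keeps other host immune cells. There were 3 recurrent tumours, which had been ablated by laser interstitial thermal therapy (LITT, heating through a laser fibre guided by magnetic resonance imaging) and had grown back, and 3 primary tumours, which were not ablated. A single library of U251N grown in vitro served as an outside reference, and 3 tumour-free brains served as controls, of which replicate 1 was a failed graft and replicates 2 and 3 were procedural per the series' design text. All the tumours thus share 1 cell line. Nothing in the labels ties each library to a separate animal, so the p-values below measure the spread between these samples.

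Type I interferon binds IFNAR1 and IFNAR2, whose kinases JAK1 and TYK2 phosphorylate STAT2. With IRF9, STAT2 enters the nucleus in a complex that binds a response element in the promoters of most genes described here. Interferon gamma uses its own receptor and is the stronger inducer of GBP1, GBP2 and IRF1. Many tumour lines keep part of this programme on in culture, and glioblastoma is among the tumours in which it has been studied.

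Several members lie side by side on the chromosomes (GENCODE release 29, GRCh38), and some share sequence, which limits how well counts of neighbours can be separated. IFIT2, IFIT3, IFIT1 and IFIT5 lie in a row at chr10:89283694-89421001, and OAS1, OAS3 and OAS2 at chr12:112906777-113011723. RSAD2 and CMPK2 overlap head to head on opposite strands of chromosome 2, as do DTX3L and PARP9 on chromosome 3; the libraries were strand-specific, so such pairs can be told apart. The IFITM genes at chr11:307631-327537 are the closest copies. Their coding sequences begin differently, as the first 60 coding bases of the GENCODE 29 transcripts show, with the start codon in capitals.
IFITM1: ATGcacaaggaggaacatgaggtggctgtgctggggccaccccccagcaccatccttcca
IFITM2: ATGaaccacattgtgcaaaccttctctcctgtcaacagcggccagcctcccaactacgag
IFITM3: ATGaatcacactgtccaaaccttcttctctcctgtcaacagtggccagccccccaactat
Further in, a stretch of 90 coding bases is identical in all of IFITM1 (coding bases 175 to 264), IFITM2 (235 to 324) and IFITM3 (238 to 327), so a read from within it cannot be assigned to 1 of them by sequence.
IFITM shared stretch: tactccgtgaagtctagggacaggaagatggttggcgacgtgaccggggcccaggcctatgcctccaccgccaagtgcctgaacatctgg
Of the 100-base windows in its transcripts, IFITM1 shared 27.5% with other genes, IFITM2 21.6% and IFITM3 3.79%. IRF9 shared 76.2% with AL136295.5, a gene that overlaps it on the same strand, USP18 shared 15.4%, TRIM22 11.5%, IFIT2 6.27% and GBP1 1.87%. Values of these genes depend on how the estimated counts were divided.

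The tumour libraries held 20321561 to 39714692 rounded estimated counts, the culture 65058609 and the controls 1358738 to 4158117. Structural small RNA genes took 6.41% to 14.5% of the counts in the tumours and 6.80% in the culture, against 92.6%, 89.8% and 31.7% in control replicates 1, 2 and 3. Graft reads, per the labels, made up 29.44% to 42.67% of the recurrent and 42.52% to 64.40% of the primary libraries. The summed level of 8 markers of the U251N line (VIM, CD44, NES and others) was 8871 to 9521 CPM (counts scaled to a library of fixed size) in recurrent tumours, 8893 to 10697 CPM in primary tumours and 12593 CPM in culture. Of 12 markers of microglia, macrophages and leukocytes, 8 were at 0 in all 6 tumours, among them PTPRC, AIF1, CX3CR1, P2RY12, TYROBP and the C1Q genes. The table holds human genes, so these zeros do not show whether rat immune cells were present in the tumours. The summed level of the 12 was 24.0 to 27.5 CPM in recurrent and 22.7 to 28.8 CPM in primary tumours, most of it CD68, which averaged 22.5 CPM in the tumours and 21.9 CPM in culture. CSF1R averaged 2.55 CPM in the tumours and 0.738 CPM in culture, and ITGAM 0.359 CPM in the tumours and 0.0307 CPM in culture; the part of host cells in the list's levels was not tested. The 4 blood markers were at 0 in every library.

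All 43 genes had counts in every tumour. Here and for the comparison of tumours, CPM are scaled by edgeR's trimmed mean of M-values (TMM). Per kilobase of the principal transcript, the mean level over the 6 tumours was highest for IFI6, a membrane protein that restrains cell death, at 322 CPM per kb. BST2, also called tetherin, which holds budding virus particles at the cell surface, stood at 215 CPM per kb. IFI27, a mitochondrial protein, was at 172 CPM per kb, IFITM3, which blocks virus entry in endosomes, at 165, and ISG15, a ubiquitin-like protein, at 120. The next 5 were IFI16 (68.3 CPM per kb), IFI44, GBP1, IFITM1 and IFIT1 (32.6 CPM per kb). The lowest level was that of CMPK2, a mitochondrial nucleotide kinase, at 2.61 CPM per kb. The coefficient of variation over the 6 tumours had a median of 17.1% in these genes, against 15.2% for the 9840 tested genes in the same range of levels. It was 3.40% for PARP9, the lowest of the list, and 34% for CMPK2, 33.6% for USP18 and 32.6% for OAS2, the 3 highest.

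**Figure D1:**
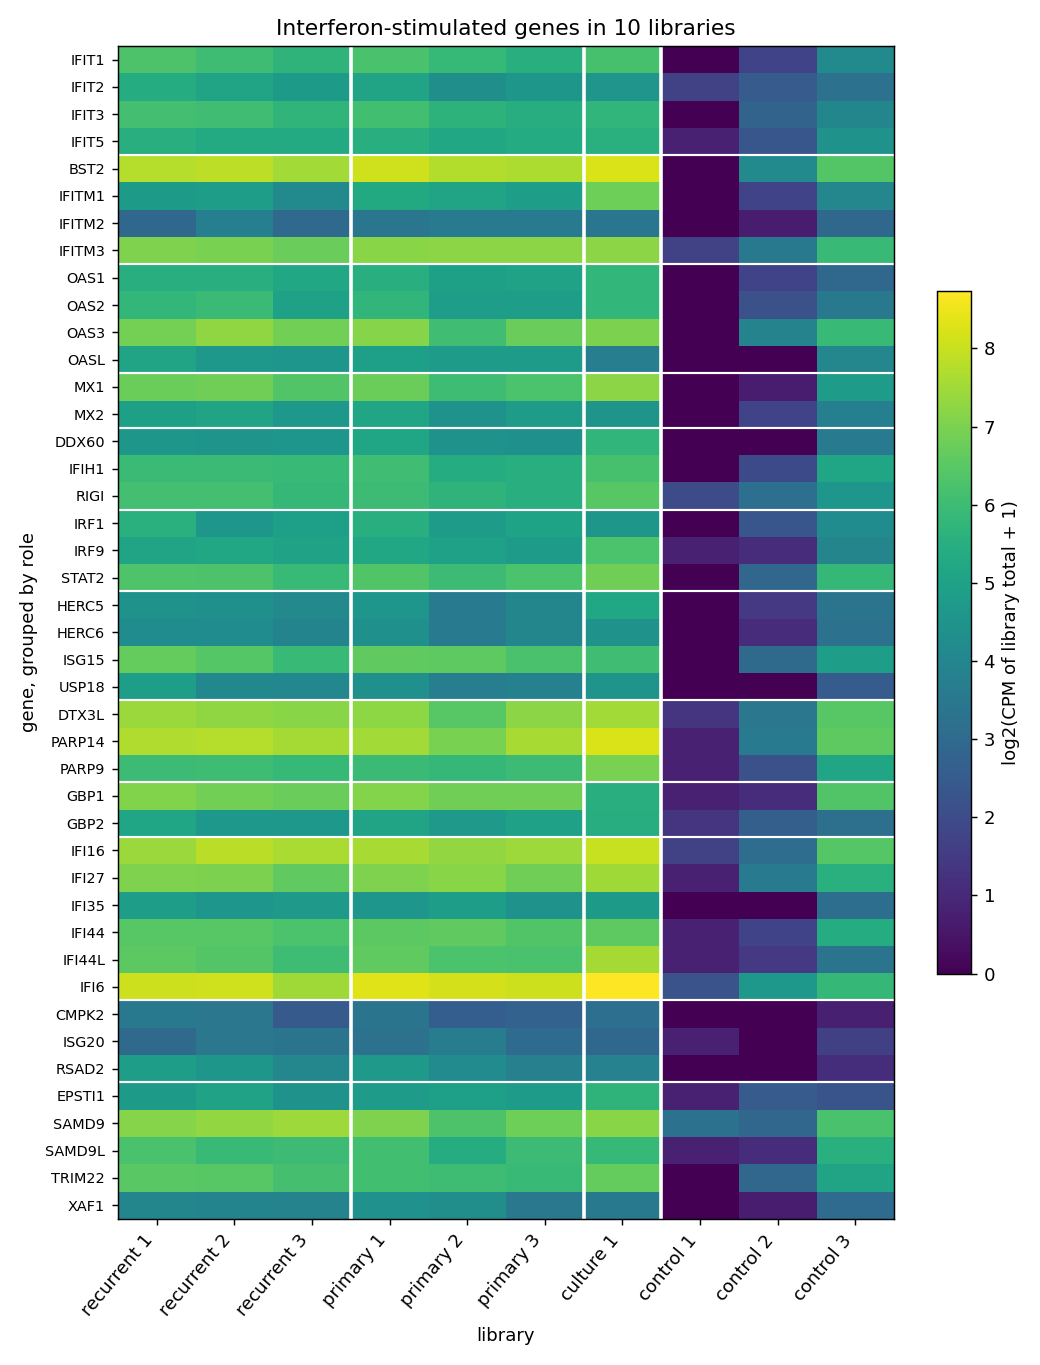
Level of 43 interferon-stimulated genes (rows, grouped by role with white lines) in 10 libraries (columns), as log2(CPM of the library total + 1). Recurrent and primary tumours and the culture have a similar pattern of high and low genes, with IFI6 and BST2 among the highest. Control replicates 1 and 2 are dark, with 45 and 342 counts over the whole list, and control replicate 3 lies between. The library totals include structural small RNA genes, which took 92.6% and 89.8% of the counts in control replicates 1 and 2.

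Whether the programme differs in tumours that grew back after LITT was asked by comparing recurrent with primary tumours. No member passed edgeR's quasi-likelihood test with Benjamini-Hochberg adjustment over 15928 genes in either direction; the smallest adjusted p of a member was 0.521. Over all genes, 0% were called higher and 0.00628% lower. Of the members, 25 were higher and 18 lower in recurrent tumours, with a median log2 fold change of 0.06, a range of -0.52 to 0.56, and a median of -0.01 over all tested genes. The 95% intervals of 40 of the 43 lay within 1 log2 unit of 0, with a median half-width of 0.41, so for those genes a difference of 2-fold or more lies outside the interval. In bulk tissue, fewer cells of a type and less RNA per cell cannot be told apart. At an unadjusted p under 0.05, 2 members were higher, against 4.59% of all genes, and 1 was lower, against 3.79%. The 3 recurrent values lay above the 3 primary ones for 3 members (7.35% of all genes) and below them for 2 members (7.95% of all genes). As shares of 43 members these counts are close to or below those of all genes.

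SAMD9, a growth-restricting antiviral factor at chr7:93099513-93118023, had the smallest p of the list. It measured 142, 152 and 175 CPM in recurrent tumours, against 127, 83.4 and 110 CPM in primary tumours. The groups did not overlap, but the lowest recurrent and highest primary tumour were close. Its log2 fold change was 0.56 (SE 0.17, edgeR adjusted p = 0.521). Its neighbour SAMD9L measured 75.1, 55.8 and 62.5 CPM in recurrent and 65.7, 44.0 and 61.0 CPM in primary tumours, and the groups overlapped. TRIM22, a ubiquitin ligase that restricts several viruses, measured 90.4, 83.8 and 70.9 CPM in recurrent and 66.2, 68.5 and 56.5 CPM in primary tumours. These groups did not overlap either, with a log2 fold change of 0.37 (SE 0.15, edgeR adjusted p = 0.574). The remaining genes of no shared family, XAF1 and EPSTI1, had log2 fold changes of -0.20 and -0.11.

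The 4 membrane restriction factors had lower means in recurrent tumours, and none passed the test. An alternative added after seeing the data removed the trend on transcript length. The log2 fold changes were then -0.29 for IFITM1, -0.12 for IFITM2, -0.06 for IFITM3 and 0.07 for BST2. The median of the 4 was -0.09, against -0.32 in the main fit, and IFITM1 stayed the lowest of them. The part of transcript length in these differences was not tested. IFITM1, which acts at the plasma membrane, measured 26.4, 26.7 and 17.2 CPM in recurrent tumours, against 37.7, 35.4 and 27.7 CPM in primary tumours. Every recurrent tumour was below every primary one, with a log2 fold change of -0.52 (SE 0.20, edgeR adjusted p = 0.572). IFITM3 measured 132, 120 and 107 CPM in recurrent tumours, against 140, 158 and 145 CPM in primary tumours. Its groups did not overlap, and its log2 fold change was -0.30 (SE 0.14, edgeR adjusted p = 0.603). IFITM2 averaged 8.53 ± 3.07 CPM in recurrent and 10.9 ± 1.41 CPM in primary tumours (SD, n = 3 each), and its log2 fold change was -0.34 (SE 0.26). BST2 measured 217, 224 and 185 CPM in recurrent tumours, against 268, 225 and 196 CPM in primary tumours, and the groups overlapped. Because the IFITM genes share sequence, their values are not independent of each other.

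The IFIT proteins, which bind foreign RNA ends, had higher means in recurrent tumours in 4 of 4 genes, with none called. With the share of graft reads as a covariate 1 was higher and 3 were lower, and without recurrent replicate 1 it was 2 and 2. Graft reads were 29.44% to 42.67% in recurrent and 42.52% to 64.40% in primary tumours. The covariate and the group can therefore hardly be told apart. IFIT2 measured 42.6, 31.6 and 26.4 CPM in recurrent and 32.2, 20.9 and 23.2 CPM in primary tumours. Recurrent replicate 1 was the highest and the other recurrent tumours overlapped the primary ones (log2 fold change 0.41, SE 0.22, edgeR adjusted p = 0.639; 0.17 with the graft covariate). IFIT1 measured 79.6, 62.1 and 50.8 CPM in recurrent tumours, against 72.1, 60.04 and 42.6 CPM in primary tumours, again with overlap. IFIT5 had nearly equal means of 40.9 and 40.5 CPM in recurrent and primary tumours.

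The OAS enzymes, which make the oligoadenylate that activates RNase L, were higher in recurrent tumours in 3 of 4 genes. OAS2 measured 55.4, 58.9 and 31.3 CPM in recurrent tumours, against 51.0, 30.6 and 28.6 CPM in primary tumours. In each group the tumours were split into high and low values, and the log2 fold change of 0.41 had a 95% interval of -0.21 to 1.03. OASL, a family member without that enzyme activity, had a log2 fold change of -0.06. MX1, a dynamin-like GTPase that traps viral particles, measured 109, 110 and 81.5 CPM in recurrent tumours, against 106, 68.7 and 75.4 CPM in primary tumours. Its groups overlapped (log2 fold change 0.27, SE 0.19).

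Among the RNA sensors, RIGI measured 69.0, 66.7 and 55.9 CPM in recurrent tumours, against 61.4, 53.5 and 42.8 CPM in primary tumours. IFIH1, also called MDA5, measured 61.9, 58.3 and 58.5 CPM in recurrent tumours, against 63.5, 44.1 and 43.8 CPM in primary tumours. In both genes primary replicate 1 lay within or above the recurrent values. The log2 fold changes were 0.29 (SE 0.16) for RIGI and 0.25 (SE 0.17) for IFIH1. With the graft covariate they were 0.05 (95% interval -0.43 to 0.54) for RIGI and 0.03 (-0.48 to 0.53) for IFIH1. The helicase DDX60 had a log2 fold change of -0.12. The signalling factors were nearly level, with log2 fold changes of -0.04 for STAT2, 0.06 for IRF9 and -0.09 for IRF1. In the ISG15 system, ISG15 measured 103, 82.5 and 60.3 CPM in recurrent tumours, against 94.8, 99.0 and 72.2 CPM in primary tumours, and the groups overlapped. USP18, which removes ISG15 from proteins and damps IFNAR2 signalling, had a log2 fold change of 0.40 (SE 0.27), with recurrent replicate 1 at 28.7 CPM and the other 5 tumours between 13.1 and 19.6 CPM.

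PARP14, an ADP-ribosyltransferase, measured 211, 209 and 190 CPM in recurrent tumours, against 179, 134 and 188 CPM in primary tumours. The groups were separated only by the narrow gap between 190 and 188 CPM (log2 fold change 0.29, SE 0.16, edgeR adjusted p = 0.644). DTX3L, a ubiquitin ligase, measured 171, 150 and 146 CPM in recurrent tumours, against 148, 92.3 and 146 CPM in primary tumours, where primary replicate 2 was the low value (log2 fold change 0.28, SE 0.19). Its partner PARP9 lay between 57.1 and 63.1 CPM in all 6 tumours (log2 fold change 0.02). GBP1 and GBP2, GTPases that attack intracellular pathogens, had log2 fold changes of -0.04 and -0.11. Among the IFI genes, IFI6 measured 272, 262 and 178 CPM in recurrent tumours, against 309, 303 and 261 CPM in primary tumours, with primary replicate 3 inside the recurrent range (log2 fold change -0.29, SE 0.19). IFI27 measured 135, 122 and 95.8 CPM in recurrent tumours, against 127, 154 and 113 CPM in primary tumours. IFI16, a sensor of DNA, measured 172, 216 and 199 CPM in recurrent tumours, against 189, 171 and 174 CPM in primary tumours, and IFI44 87.8, 84.7 and 75.5 CPM in recurrent tumours, against 89.4, 101 and 79.1 CPM in primary tumours. The groups overlapped in these 3 genes, with log2 fold changes of -0.15 for IFI27, 0.14 for IFI16 and -0.12 for IFI44. RSAD2, or viperin, which makes a nucleotide that ends viral RNA chains, averaged 22.1 ± 6.31 CPM in recurrent and 18.6 ± 5.83 CPM in primary tumours (SD, n = 3 each), and CMPK2, which supplies its substrate, had a log2 fold change of 0.30 with a 95% interval of -0.47 to 1.07.

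**Figure D2:**
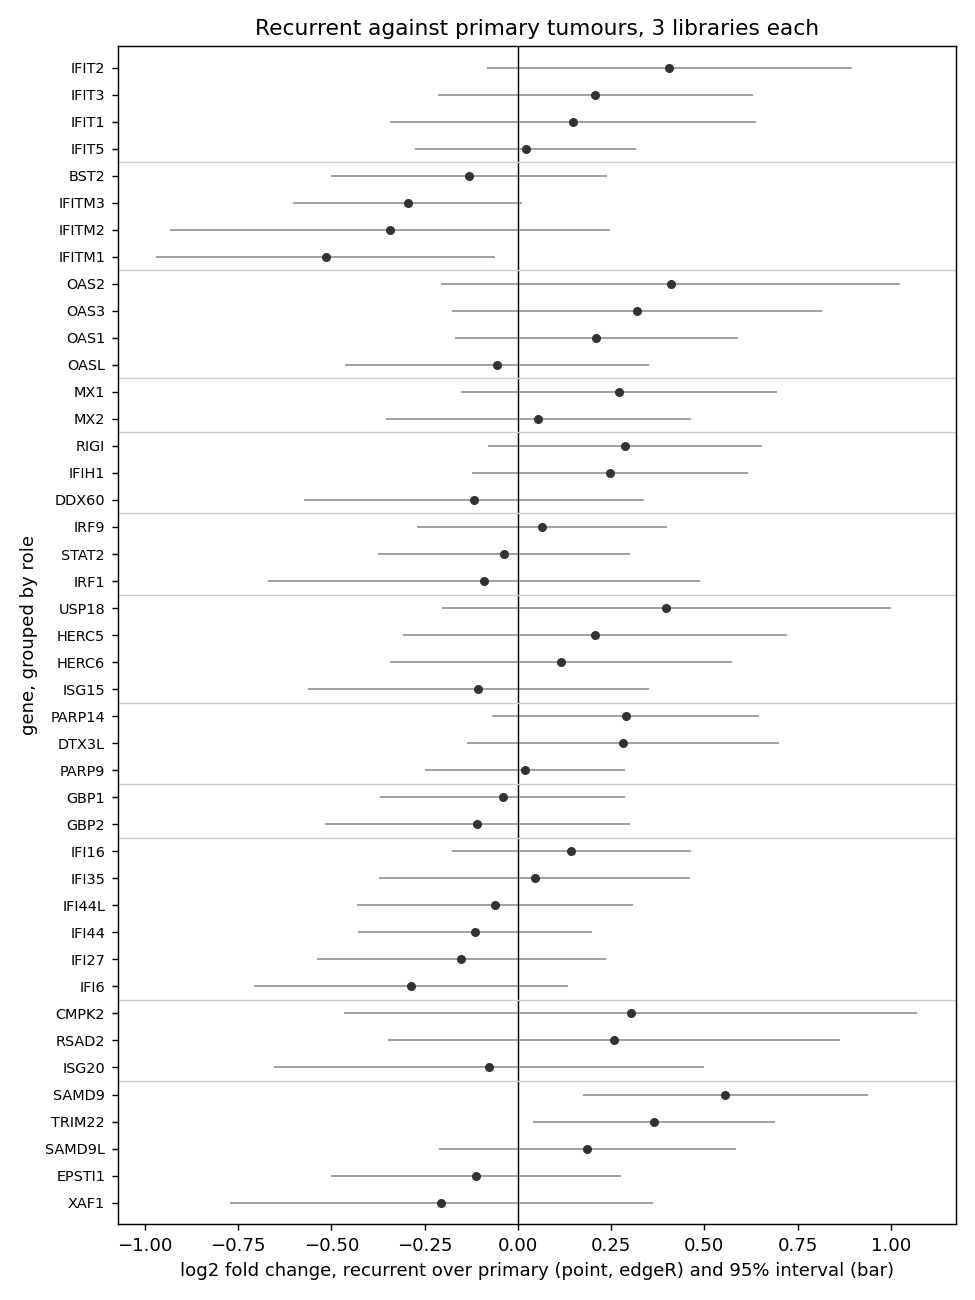
Log2 fold change of 43 interferon-stimulated genes in recurrent over primary tumours (points, edgeR, n = 3 each) with 95% intervals (bars), grouped by role. Points run from -0.52 for IFITM1 to 0.56 for SAMD9; SAMD9, TRIM22 and IFITM1 have intervals that leave out 0 before adjustment over all genes.

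Within each group the tumours differed from one another. Recurrent replicate 1 held the highest value of the 6 tumours for 20 of the 43 members, against 15% of all tested genes, and primary replicate 1 for 11, against 12.2%. The lowest value fell to recurrent replicate 3 for 13 members (16.5% of all genes), to primary replicate 3 for 13 (9.01%) and to primary replicate 2 for 11 (28.9%). The mean of log2(CPM + 1) over the 43 genes was 5.06, 4.93 and 4.71 in recurrent tumours, against 5.03, 4.83 and 4.69 in primary tumours, so that each group spanned nearly the same range. It was 5.12 in culture, and 1.69, 3.71 and 3.95 in the controls. Without primary replicate 1, the median log2 fold change was 0.16 over the members and -0.0005 over all tested genes. In that edgeR fit 9 members were higher at an unadjusted p under 0.05, against 753 of 16544 tested genes. None of the members was called after adjustment. Adding the share of graft reads as a covariate, the median was -0.08, with 18 members higher and 25 lower, and none was called. The graft share nearly followed the groups, so this fit can hardly tell its part from that of recurrence. Members with longer transcripts tended to have higher fold changes: Spearman's rho of log2 fold change with transcript length was 0.52 across the 43 members and 0.36 across 13081 protein-coding genes, all measured in the same 6 libraries. The members with a higher mean in recurrent tumours had a median transcript length of 3513 bases and those with a lower mean 2038 bases. Without primary replicate 2, whose RNA integrity number was 7.8, rho over the members was 0.25; its part in the fold changes was not tested.

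**Figure D3:**
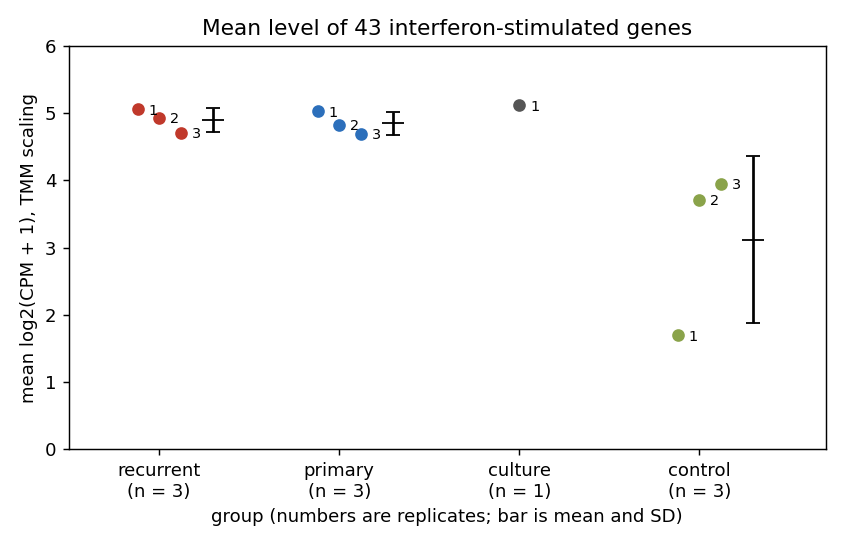
Mean of log2(CPM + 1, TMM scaling) over 43 interferon-stimulated genes in each library, with the mean and SD of each group of 3. Recurrent tumours (4.71 to 5.06), primary tumours (4.69 to 5.03) and the culture (5.12) overlap or adjoin, and the controls lie lower, at 1.69 to 3.95.

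The culture shows what the line expresses outside the brain. It is 1 library, so this comparison has no replicate check on the culture side. A gene was called where all 6 tumours were at least 2-fold away on the same side, on (CPM of the library total + 0.5). Of the 43 members, 1 was called higher in tumours, against 1.71% of 14111 genes, and 2 were called lower, against 3.13%. GBP1, at chr1:89052319-89065360, measured 135, 117 and 106 CPM in recurrent tumours and 137, 115 and 114 CPM in primary tumours, against 43 CPM in culture (Wilson 95% interval 41.5 to 44.7, counting error only). Every tumour was above the culture, 2.77-fold in the mean of logs. GBP2, its neighbour, averaged 28.6 ± 4.64 CPM in the tumours (SD, n = 6), against 42.2 CPM in culture, the opposite direction.

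IFITM1 showed the largest difference of the list. It measured 26.0, 27.7 and 17.1 CPM in recurrent tumours and 38.6, 33.3 and 28.2 CPM in primary tumours, against 112 CPM in culture (Wilson 95% interval 110 to 115). The culture was thus 4.00-fold above the tumours. Its close copies did not follow: IFITM3 averaged 133 ± 16.2 CPM in the tumours, against 147 CPM in culture, and IFITM2 9.72 ± 2.52 CPM, against 9.79 CPM in culture (SD, n = 6 each). IRF9, the DNA-binding partner of STAT2, averaged 32.6 ± 3.34 CPM in the tumours (SD, n = 6), against 76.5 CPM in culture (Wilson 95% interval 74.4 to 78.7), a log2 ratio of -1.22. Most of its sequence is shared with an overlapping gene, so this value rests on the division of counts.

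All 6 tumours lay below the culture for 22 members, against 32.9% of all genes, and above it for 3 members (GBP1, OASL and ISG20), against 21.4%; the other 18 members had tumours on both sides. The median log2 ratio to culture was -0.39 over the members and -0.09 over all genes, and by group -0.23 for recurrent and -0.47 for primary tumours. IFI44L measured 91, 84.1 and 64.5 CPM in recurrent and 97.1, 76.1 and 74.7 CPM in primary tumours, against 188 CPM in culture, and missed the call only in primary replicate 1. DDX60 measured 23.4, 21.9 and 23.3 CPM in recurrent and 33.8, 20.7 and 19.7 CPM in primary tumours, against 52.4 CPM in culture, and missed it only in the same tumour. HERC5, the ligase that attaches ISG15, measured 21.2, 19.8 and 16.3 CPM in recurrent and 23.0, 11.5 and 15.1 CPM in primary tumours, against 37 CPM in culture. PARP9 measured 62.2, 63.8 and 57.0 CPM in recurrent and 61.6, 55.3 and 61.8 CPM in primary tumours, against 125 CPM in culture, a narrow band near 2-fold below. OASL went the other way, with 33.6, 24.0 and 23.2 CPM in recurrent and 29.5, 27.4 and 26.4 CPM in primary tumours, against 12.4 CPM in culture. ISG15 itself averaged 85.2 ± 15.7 CPM in the tumours (SD, n = 6), against 66.0 CPM in culture, with recurrent replicate 3 below the culture. The list therefore held members on either side, with more of them lower in the tumours. A fit by edgeR in which the culture is assumed to vary like the tumours called 2 members higher (GBP1 and OASL), against 2.73% of 19306 genes, and 5 lower (DDX60, IFI44L, IFITM1, IRF9 and PARP9), against 3.5%, after Benjamini-Hochberg adjustment.

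**Figure D4:**
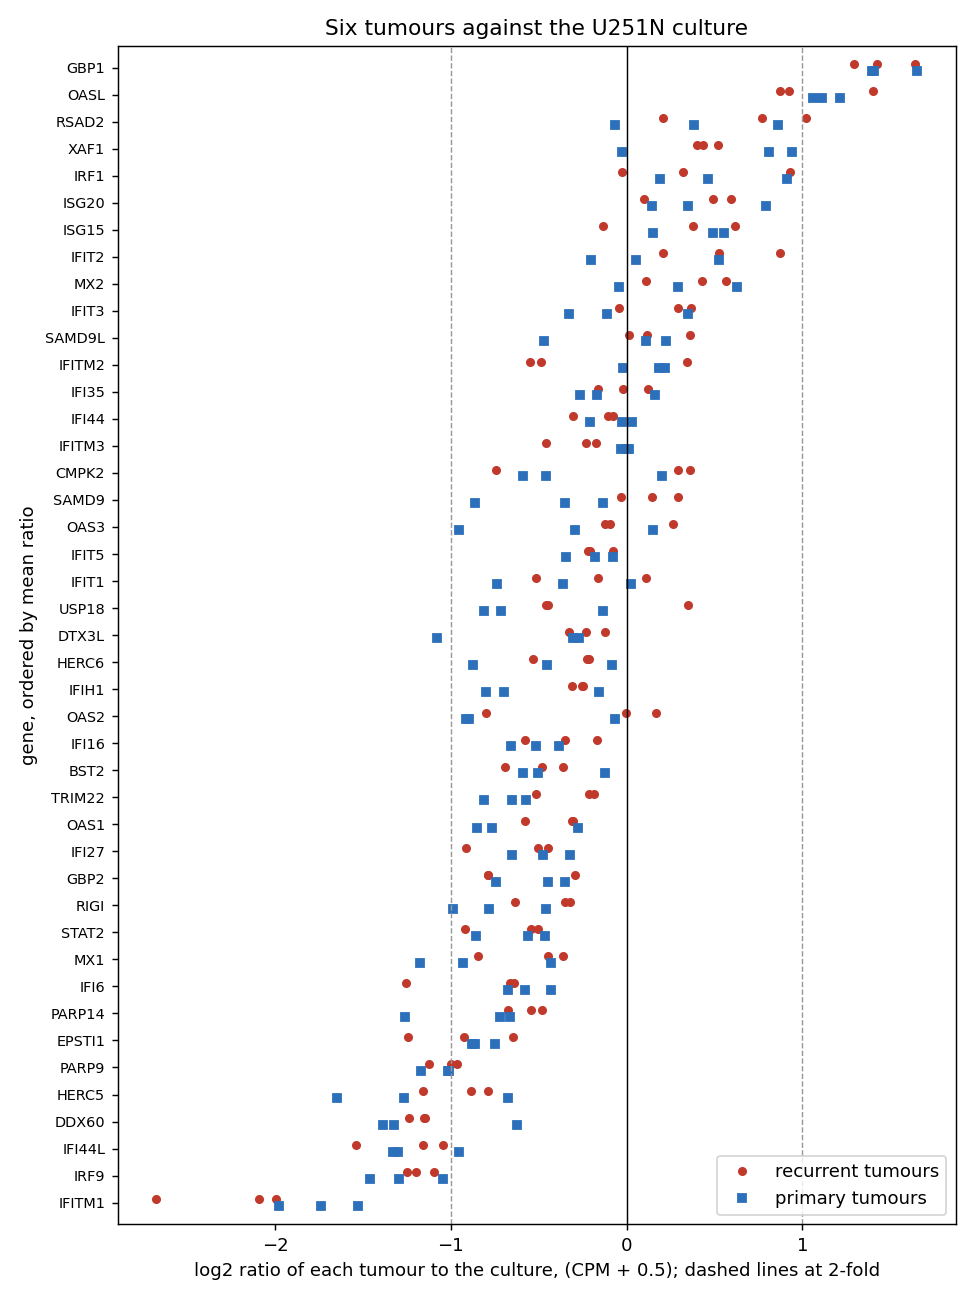
Log2 ratio of each tumour to the culture, on (CPM + 0.5), for 43 interferon-stimulated genes ordered by their mean; red circles are recurrent and blue squares primary tumours, and dashed lines mark 2-fold. GBP1 lies beyond 2-fold above in all 6 tumours, and IFITM1 and IRF9 beyond 2-fold below.

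The tumour-free brains served to gauge what signal reaches the human gene table without a tumour. Control replicate 3 held 4.9% graft reads and U251N markers within the tumours' range (below), so its counts cannot be taken as free of graft signal. Over the whole list, the tumours held 66046 to 109869 counts, against 45, 342 and 5352 counts in control replicates 1, 2 and 3. These sums are not scaled for depth. In CPM of counts outside structural small RNA genes, they were 2956 to 3753 in the tumours, against 449, 1962 and 1885 in control replicates 1, 2 and 3. Of the 44 rows, 25 had no count in control replicate 1, 8 in replicate 2 and 1, IRF7, in replicate 3. Where a library had no count, the limit of 3 counts corresponds to 0.0755 to 0.148 CPM of the library total in the tumours. In the controls it corresponds to 0.721 to 2.21 CPM of the library total. At the controls' median count per host read, the host reads of any tumour would give at most 0.254% of a member's count. With structural small RNA genes left out of the totals, this was at most 2.22%. A median sets aside the highest control, so neither value bounds what control replicate 3 alone would give. No member passed 10% in either form. Few genes did: of 11725 genes with a mean tumour count over 100, 57 passed it in the first form and 216 in the second. Both forms rest on the read classes that were counted, and these are not stated in the sources used here.

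Compared with the 3 controls by edgeR's quasi-likelihood test with Benjamini-Hochberg adjustment over 16389 genes, 7 members were higher in the tumours, against 1.17% of all genes, and 0 were lower, against 4.86%. At an unadjusted p under 0.05 the member counts were 24 and 0, against 1826 and 1560 of the 16389 genes. DESeq2 called 7 and 0 members, against 156 and 1275 of the same genes. All 43 log2 fold changes were positive, with a median of 0.86, against 0.22 over all genes. The levels that follow are in CPM of the counts outside structural small RNA genes. On this scale, 3 counts correspond to 30.0, 17.2 and 1.06 CPM in control replicates 1, 2 and 3. A 0 in replicate 1 or 2 therefore does not show a lower level for genes whose tumour levels lie near or below these floors, such as RSAD2 and CMPK2. IFI44L, whose biochemical function is poorly known, had 72 to 107 CPM in the 6 tumours, against 1, 3 and 39 counts in the controls, which in replicate 3 was 13.7 CPM. Every tumour was above every control (log2 fold change 2.63, SE 0.32, adjusted p = 0.000524 by edgeR). RSAD2 had 13.7 to 32.2 CPM in the tumours, against 0, 0 and 5 counts in the controls (edgeR adjusted p = 0.00231). OAS1 had 33.9 to 50.5 CPM in the tumours, against 0, 4 and 27 counts in the controls (log2 fold change 1.98, SE 0.38, edgeR adjusted p = 0.00729). These 3 genes were far below the tumours in control replicate 3, the deepest control. MX1 (edgeR adjusted p = 0.0236), IFIT1 (0.0243), CMPK2 (0.0256, with 0, 0 and 3 counts in the controls) and IFI35 (0.0446) were called with less margin.

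The calls depended on single controls. Without control replicate 1, 2 and 3 in turn, 5, 7 and 9 members were called higher. Over all genes, 125 of 17317, 208 of 17315 and 1524 of 17223 were called higher in these fits. Without replicate 3 the median was 1.13 over the members and 1.16 over all genes, 39 members were higher and 4 lower, and RSAD2 (edgeR adjusted p = 0.0833), CMPK2 (0.199), OAS1 (0.184) and IFIT1 (0.0711) were no longer called. CMPK2 was also lost without replicate 1 (edgeR adjusted p = 0.0558), MX1 and IFIT1 without replicate 2 (0.0586 and 0.0501), and IFI35 without replicate 1 or 2 (0.0694 and 0.0561). IFI44L was called in each of these fits.

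Control replicate 3, a procedural control with 4.9% graft reads, was unlike the other controls. The summed U251N markers were at 9902 to 11430 CPM in the tumours, outside structural small RNA genes, against 11385 CPM in this control and 1438 and 5581 CPM in replicates 1 and 2. Oligodendrocyte markers summed to 9.61 to 23.9 CPM in the tumours, against 70.8 CPM in it, and neuron markers to 148 to 186 CPM in the tumours, against 275 CPM. Most of the neuron sum in the tumours was TUBB3, which averaged 131 CPM of the library total there and 50.9 CPM in culture. Relative to the tumour mean, in CPM outside structural small RNA genes, the level in control replicate 3 had a median ratio of 0.597 over the members. Over all tested genes the median ratio was 0.926. All 6 tumours were above it for 32 members, against 32.1% of all genes, and below it for 0 members, against 23.1%. In 17 of the 43 members it held at most 0.5 times the tumour mean, as did 16.6% of tested genes. This comparison was chosen after the data were seen and rests on 1 library. RSAD2 averaged 22.8 ± 6.78 CPM in the tumours (SD, n = 6), against 1.76 CPM in this control (Wilson 95% interval 0.752 to 4.12). IFI6 had 198 to 349 CPM in the tumours, against 81.7 CPM in this control. By contrast STAT2 averaged 81.2 ± 9.95 CPM in the tumours, against 81.0 CPM in this control, SAMD9L 67.7 ± 12.4 CPM, against 67.6 CPM, and GBP1 135 ± 15.7 CPM, against 120.4 CPM (SD, n = 6 each). Thus RSAD2 and IFI6 were well below the tumours in this library, while STAT2, SAMD9L and GBP1 lay within their range. How U251N markers came into this library was not tested. In control replicate 2, IFI6 was at 235 CPM (41 counts), inside the tumours' range.

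**Figure D5:**
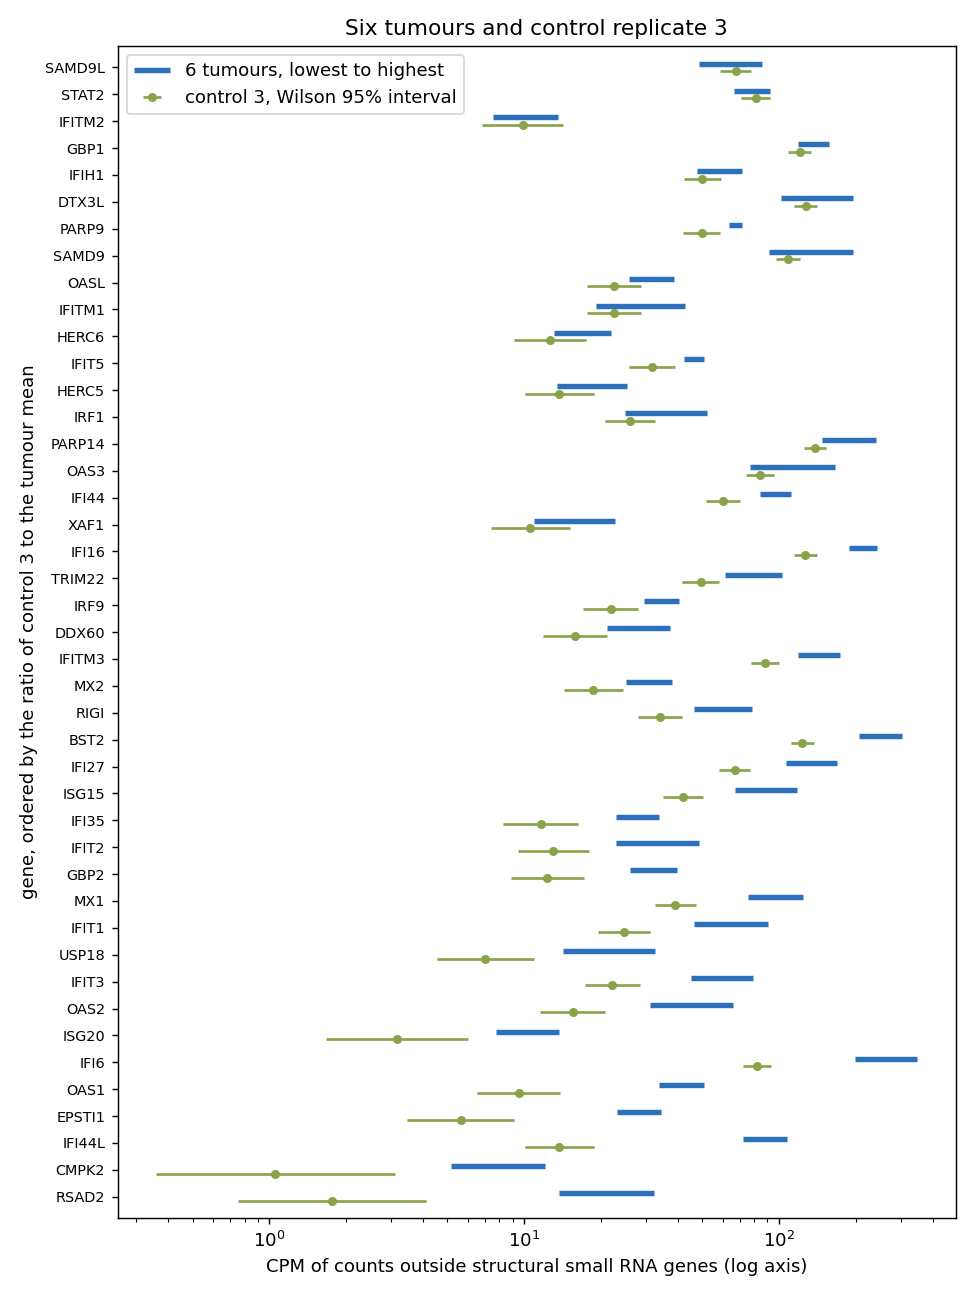
Level of 43 interferon-stimulated genes in the 6 tumours (blue bars, lowest to highest) and in control replicate 3 (green points with Wilson 95% intervals), in CPM of counts outside structural small RNA genes on a log axis, ordered by the ratio of control to tumour mean. SAMD9L and STAT2 at the top coincide with the tumours, while RSAD2, CMPK2 and IFI44L at the bottom lie well below them.

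The genes upstream of the programme were read from lists of ligands, receptors, signalling factors, inhibitors and sensors. Of 9 interferon genes, 8 had no count in any tumour, among them IFNB1 and IFNG, and IFNE had 10 counts over all 6; in culture IFNB1 had 3 counts. Ligands made by rat cells are not measured in a human gene table. The receptors were present: IFNAR1 averaged 67.6 ± 7.43 CPM in recurrent and 67.2 ± 4.73 CPM in primary tumours, and IFNAR2 20.3 ± 2.38 and 22.3 ± 3.72 CPM in recurrent and primary tumours (SD, n = 3 each). IFNGR2 averaged 42.7 ± 4.59 CPM in recurrent and 48.7 ± 3.61 CPM in primary tumours (SD, n = 3 each). Of 6 receptor genes, 2 were higher and 4 lower in recurrent tumours, with none called. IFNGR1, the ligand-binding chain of the interferon gamma receptor, measured 24.4, 22.2 and 27.2 CPM in recurrent tumours, against 34.9, 38.3 and 32.0 CPM in primary tumours. The groups did not overlap (log2 fold change -0.51, SE 0.15, edgeR adjusted p = 0.516).

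Of the kinases, JAK1, TYK2 and JAK2 had higher fitted levels in recurrent tumours, with none called. JAK1 averaged 130.5 ± 7.01 CPM in recurrent and 123 ± 20.2 CPM in primary tumours, and TYK2 53.7 ± 3.38 and 47.2 ± 9.72 CPM in recurrent and primary tumours (SD, n = 3 each). Among 5 inhibitors of the pathway, 2 were higher and 3 lower in recurrent tumours with none called, and SOCS1, which blocks the kinases, averaged 2.11 ± 0.305 CPM in recurrent and 2.24 ± 0.226 CPM in primary tumours (SD, n = 3 each). Of 9 sensing genes found, 8 were tested, of which 7 were higher and 1 lower in recurrent tumours, with none called. CGAS and STING1 are named after their values were seen. CGAS, the cytosolic DNA sensor, had 8 counts over all 6 tumours, whereas its adaptor STING1 averaged 10.4 ± 2.04 CPM in recurrent and 9.69 ± 1.54 CPM in primary tumours (SD, n = 3 each), against 24.7 CPM in culture. DHX58, a regulator of RIGI and IFIH1, was the 1 of the 8 called lower than culture, beside 3.13% of all genes, with a log2 ratio of -1.30. Of 47 tested genes in a further list of interferon-induced genes, 30 were higher and 17 lower in recurrent tumours, with a median log2 fold change of 0.11 and none called. Against culture, 2 of 46 genes of that list were called higher in all 6 tumours, beside 1.71% of all genes, and 0 lower, beside 3.13%: PSMB9, an immunoproteasome subunit, at 32.4 CPM in the tumours and 11.2 CPM in culture, and APOL1 at 52.2 CPM in the tumours and 21.5 CPM in culture. Against the controls, where 1.17% of all genes were called higher and 4.86% lower, PSMB8 of the 47, another immunoproteasome subunit, was called higher in the tumours (log2 fold change 1.22, SE 0.32, edgeR adjusted p = 0.0428), and IKBKE of the 8 sensing genes, a kinase that activates interferon production, was called lower (log2 fold change -1.63, SE 0.41, edgeR adjusted p = 0.0314), with 872 counts over the 6 tumours, against 0, 5 and 48 counts in the controls.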

How the data were processed

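RNA was measured in 10 libraries of the U251N xenograft study. The deposited table holds estimated counts per gene made by the authors, not scaled between libraries. The submitters' processing notes name STAR, Salmon 1.10.3, DESeq2 and GRCh38. What each tool did, the annotation release, the handling of multimapping reads and the read classes behind the graft percentages were not given in the sources used here. Groups follow the treatment labels, with replicates numbered in accession order. The members, gene lists and tests were chosen with earlier results of these data known.

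Estimated counts were rounded. GENCODE release 29, which matched 58261 of 62754 gene IDs, gave coordinates and transcript lengths. CPM are counts per library total, with TMM scaling where named. Tests used edgeR 4.0.16 (R 4.3.3; TMM, default low-count filter, two-sided quasi-likelihood F test, no covariate). Benjamini-Hochberg adjustment ran over every tested gene, at 0.05. The SE is the log2 fold change divided by the square root of F. The culture comparison took genes with a mean of at least 1 CPM over 7 libraries and a pseudocount of 0.5 CPM, which understates changes of low genes. Host share is the controls' median count per host read, times a tumour's host reads, over its count, with a limit of 10%. Every member could be named; values per library were set for the 10 with the smallest p between tumours, the 10 highest per kilobase and the 8 farthest from culture, and pathway genes were named from a short list or where called. Scripts were tested on simulated data. Promoter motifs were not analysed here, and 1 pathway gene is not reported here. Alternatives were DESeq2 1.42.0, limma 3.58.1, other scalings and filters, a graft covariate, removal of the length trend and leaving out each library. Intervals and floors of 3 counts reflect counting error alone, because without molecular identifiers reads are not separate molecules.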

Additional observations from a re-analysis of the deposited data

How the results depend on the processing

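No member was called between recurrent and primary tumours under any setting run: RLE scaling, no low-count filter (smallest adjusted p of a member 0.0908), DESeq2 (0.145), limma-voom, no structural small RNA genes, the graft covariate, or leaving out each tumour in turn. Over all genes, edgeR called 0 higher and 1 lower, DESeq2 68 and 49, and edgeR with no low-count filter 227 and 184. Without recurrent replicate 1 or primary replicate 3 the median log2 fold change was 0.01 each time, and with the length trend removed, added after seeing the data, it was 0.10. Against culture, a 3-fold limit left 0 members higher and 0 lower in place of 1 and 2. The edgeR fit with a lone culture gave 2 higher and 5 lower. Leaving out each tumour in turn gave 2 to 4 members lower, the highest count, with DDX60 and IFI44L added, without primary replicate 1. Against controls, IFI35 was not called under DESeq2 (adjusted p = 0.128), RLE scaling (0.0556) or without structural small RNA genes (0.0508). The graft covariate lowered TRIM22 to 0.21, and removal of the length trend left IFI6 at -0.05 and PARP14 at 0.15. None of the 10 genes with the smallest p between tumours, the 7 called against controls or the 8 farthest from culture changed sign under the settings run for it. No paired analysis was possible because the labels give no replicate numbers, and numbers in accession order pair no samples. Depth limits the controls most: replicates 1 and 2 held 45 and 342 counts over the list.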
